A study of Rattus norvegicus with 69 samples.

Results

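The genes described here carry names of proteins of the cytosolic ribosome and were measured in the rat testis. They are the genes whose probe sets carry a single platform symbol of the Rpl or Rps series, without the Rps6k kinases and without paralogs such as Rpl3l. The rule found 45 genes, measured by 51 probe sets, among 14217 genes and 31042 probe sets on the array. Of these 45, 30 have large-subunit names and 15 have small-subunit names. Each gene is represented by its probe set with the highest mean signal over the 69 samples. The names Rpl37-ps2 and Rps4x-ps1 are classed as transcribed pseudogenes in RefSeq. The set is partial. It leaves out 36 probe sets that carry several symbols, at least 1 of them a ribosomal protein name.

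Ribosomes translate the mRNA of the cell, and each consists of a small subunit that reads the mRNA and a large subunit that joins the amino acids. Most of the proteins are needed in fixed proportions, and their genes are known for coordinated control. Their mRNAs typically begin with a tract of pyrimidines, the 5′ TOP motif, through which growth signals regulate their translation. During spermatogenesis, spermatogonia divide, spermatocytes pass through the long prophase of meiosis, and haploid round spermatids then elongate and shut down transcription. Several ribosomal protein genes have retrogene paralogs with testis expression, such as the autosomal copy of Rpl39.

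The study measured RNA with Affymetrix rat arrays, on which a probe set is a group of short oligonucleotides that together give 1 signal for a transcript. Seminiferous tubules of Sprague Dawley rats aged 55 to 60 days were dissected under transillumination into 10 stages or stage groups of the epithelial cycle: the single stages I, VI, VIII and XII, the joined stages II-III, IV-V, IX-XI and XIII-XIV, and stage VII split into VIIa.b and VIIc.d. Each tubule sample joined 25 segments per rat from a pool of 2 rats, with 5 samples per stage except 4 for IV-V. Sertoli cells (4 samples, about 85% pure), pachytene spermatocytes (4 samples) and round spermatids (4 samples) came from rats of the same age, and the germ cells were separated by elutriation to a purity of 85 to 95%. A mixed fraction of spermatogonia and early spermatocytes (3 samples) came from rats aged 18 to 20 days, so age and cell type cannot be told apart in comparisons with it. Whole testis had 5 samples, with no age given for them. The group titled IX-XI has source names that read IX-XII, and the title is used here. The labels do not say whether the isolated cell samples came from separate preparations, so p-values for them measure the spread between these samples, which may be technical.

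Replicates of a group correlated at 0.89 to 0.98 over all probe sets, and the number of arrays limits the precision. The labelled cell types were compared with marker genes. Sertoli markers (8 measured) summed to 11060 to 16060 in Sertoli cells, and to 476 to 675 in pachytene spermatocytes. Pachytene markers (6 measured) summed to 11610 to 17340 in pachytene spermatocytes and to 13230 to 15020 in round spermatids. That list therefore did not separate these 2 groups. Round spermatid markers (6 measured) summed to 11580 to 13700 in round spermatids and to 3227 to 4045 in pachytene spermatocytes. They summed to 101 to 160 in the spermatogonia-early spermatocyte fraction. In that fraction the list for spermatogonia and early spermatocytes (4 measured) summed to 756 to 1124, below its 1412 to 1780 in Sertoli cells. The fraction also held Leydig cell markers (7 of 7 above the low-signal limit of 43.7, sum 6508 to 9982) and macrophage markers (4 of 5 above the limit, sum 1148 to 1265). In pachytene spermatocytes these 2 lists summed to 227 to 436 and to 114 to 164. Sertoli markers in the fraction summed to 3092 to 4308. The markers thus do not bear out its label as a fraction of germ cells alone, and the label is kept only as a name. The Sertoli cell samples also held Leydig cell markers (7 of 7 above the limit, sum 5730 to 7586). They held peritubular myoid markers (5 of 5, sum 2185 to 5288) and endothelial markers (5 of 5, sum 578.5 to 1650) as well. The part of these other cells in every result with the younger fraction or with Sertoli cells was not tested. In such bulk samples, fewer cells of a type and less RNA per cell cannot be told apart.

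The start regions of a few of these genes are shown because the pyrimidine tract at the start is a feature of this family that the choice of genes did not use, and because the genes shown differ in their changes between cell groups. RefSeq promoter sequences (build GRCr8) were matched for 36 of the 45 genes by gene ID. Each line below runs from 30 bases before to 30 bases after the annotated start, 5′ to 3′ on the gene's strand, and capitals mark the longest unbroken run of C and T that touches the 10 bases on either side of the start. Rpl35 and Rpl19 were lower from the spermatogonia-early spermatocyte fraction to pachytene spermatocytes and again to round spermatids. Rpl26 combines a short run with falls in both steps. The Rps24 probe set used here did not pass as lower in either step, but a weaker probe set of the gene did, as given below. Rpl39 and its paralog Rpl39l1 moved in opposite directions. The windows lie at chr3:43165892-43165951, minus strand (Rpl35), chr10:83519034-83519093, plus strand (Rpl19), chr16:96487-96546, plus strand (Rps24), chr10:54109662-54109721, plus strand (Rpl26), chrX:121195867-121195926, minus strand (Rpl39) and chr10:5966592-5966651, minus strand (Rpl39l1).
Rpl35: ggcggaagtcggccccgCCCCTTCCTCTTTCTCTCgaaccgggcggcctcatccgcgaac
Rpl19: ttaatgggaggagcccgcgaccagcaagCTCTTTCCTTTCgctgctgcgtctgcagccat
Rps24: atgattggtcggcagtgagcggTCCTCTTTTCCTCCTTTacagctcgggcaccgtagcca
Rpl26: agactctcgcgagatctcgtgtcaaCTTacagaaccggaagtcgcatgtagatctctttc
Rpl39: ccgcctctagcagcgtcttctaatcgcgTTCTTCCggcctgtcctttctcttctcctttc
Rpl39l1: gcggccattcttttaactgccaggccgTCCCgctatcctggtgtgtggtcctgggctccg
A run of at least 8 pyrimidines was present in 24 of the 36 genes (66.7%), against 13.2% of 27457 promoters in the table, and the median run was 10 bases against 4. The run was 18 bases in Rpl35, 12 in Rpl19, 17 in Rps24, 3 in Rpl26, 7 in Rpl39 and 4 in Rpl39l1. Only the sense strand was searched, and a match describes the letters around the annotated start. Of the 36 matched genes, Rpl39 was the 1 on the X chromosome, and the others lay on 12 autosomes.

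As a share of the summed array signal, these genes were highest in the spermatogonia-early spermatocyte fraction and in Sertoli cells and lowest in round spermatids. The 45 probe sets together held 2.62% ± 0.56 (SD, n = 3) of the summed array signal in the spermatogonia-early spermatocyte fraction, with samples at 2.08, 2.58 and 3.20%. The highest, replicate 3, was also the sample with the highest actin 3′ to 5′ ratio of the 3 (3.64). In Sertoli cells the share was 2.16% ± 0.26 (n = 4), with samples at 1.82, 2.17, 2.18 and 2.46%. These 2 groups overlapped. Pachytene spermatocytes held 1.49% ± 0.14 (n = 4; 1.34, 1.42, 1.56 and 1.65%), below every Sertoli sample. Round spermatids held 1.10% ± 0.02 (n = 4), and all 4 samples, at 1.08 to 1.13%, lay below every pachytene sample and every tubule sample. Among tubules the share was lowest at IV-V (1.28% ± 0.02, n = 4) and highest at IX-XI (1.92% ± 0.17, n = 5), and whole testis held 1.76% ± 0.22 (n = 5). Neighbouring tubule stages other than IX-XI mostly overlapped. A share also depends on the other signals of the array. The median over 41 members of log2 signal, each gene centred on its mean over the groups, gave another order. It averaged 0.60 in the spermatogonia-early spermatocyte fraction, 0.39 at IX-XI, 0.32 in Sertoli cells and -0.57 in round spermatids.

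**Figure D1:**
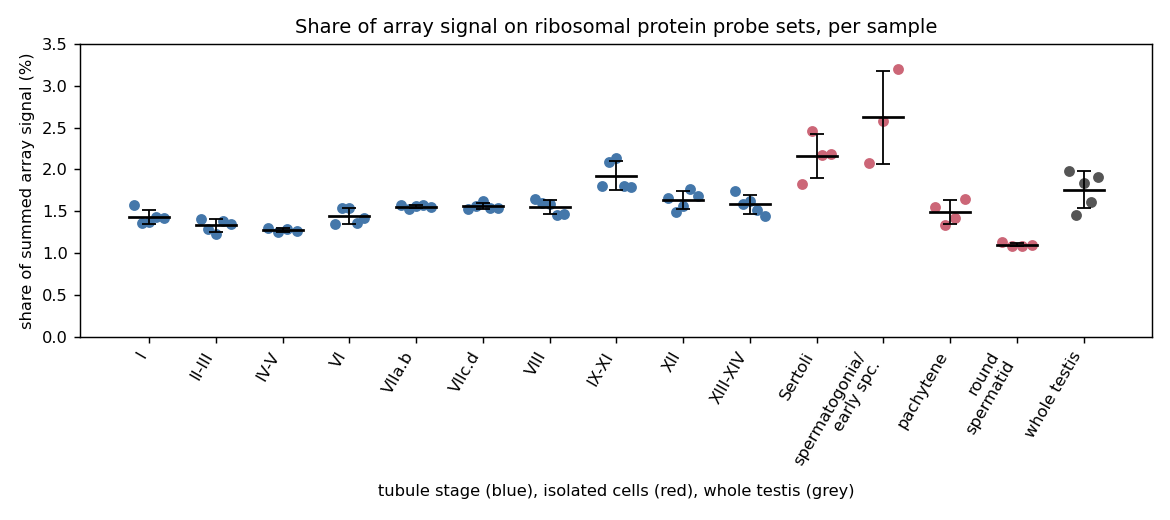
Percent of the summed signal of each array that fell on the 45 ribosomal protein probe sets (vertical axis) for each sample (points) of 15 groups (horizontal axis), with group mean (line) and SD (bar). The round spermatid samples lie lowest, near 1.10%, and the spermatogonia-early spermatocyte samples spread most, from 2.08 to 3.20%.

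Single genes did not all follow the order of the shares. Of the 41 genes that passed the filter on low signals in the cell samples, 24 had their highest group mean in the spermatogonia-early spermatocyte fraction, 12 at tubule stage IX-XI and 2 in Sertoli cells. Round spermatids held the lowest mean for 25 of them. The shares of all probe sets with these highest and lowest groups were not computed, so the counts only describe the members. Rpl28, Rpl30 and Rps4x-ps1 stayed below the low-signal limit in nearly all samples, with mean signals of 7.85, 18.1 and 4.63, and were not tested. Rps13 (mean 30.6), of the small subunit, was tested in tubules and whole testis but not in cells. The range over the 15 groups was widest for Rpl19 (log2 range 5.30), Rpl35 (3.87), Rpl37-ps2 (3.63), Rpl26 (3.14) and Rpl13a (3.11). It was narrowest for Rpl23a (0.50), Rps3a (0.58) and Rps9 (0.60). All differences here are on the log2(signal + 5.11) scale.

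**Figure D2:**
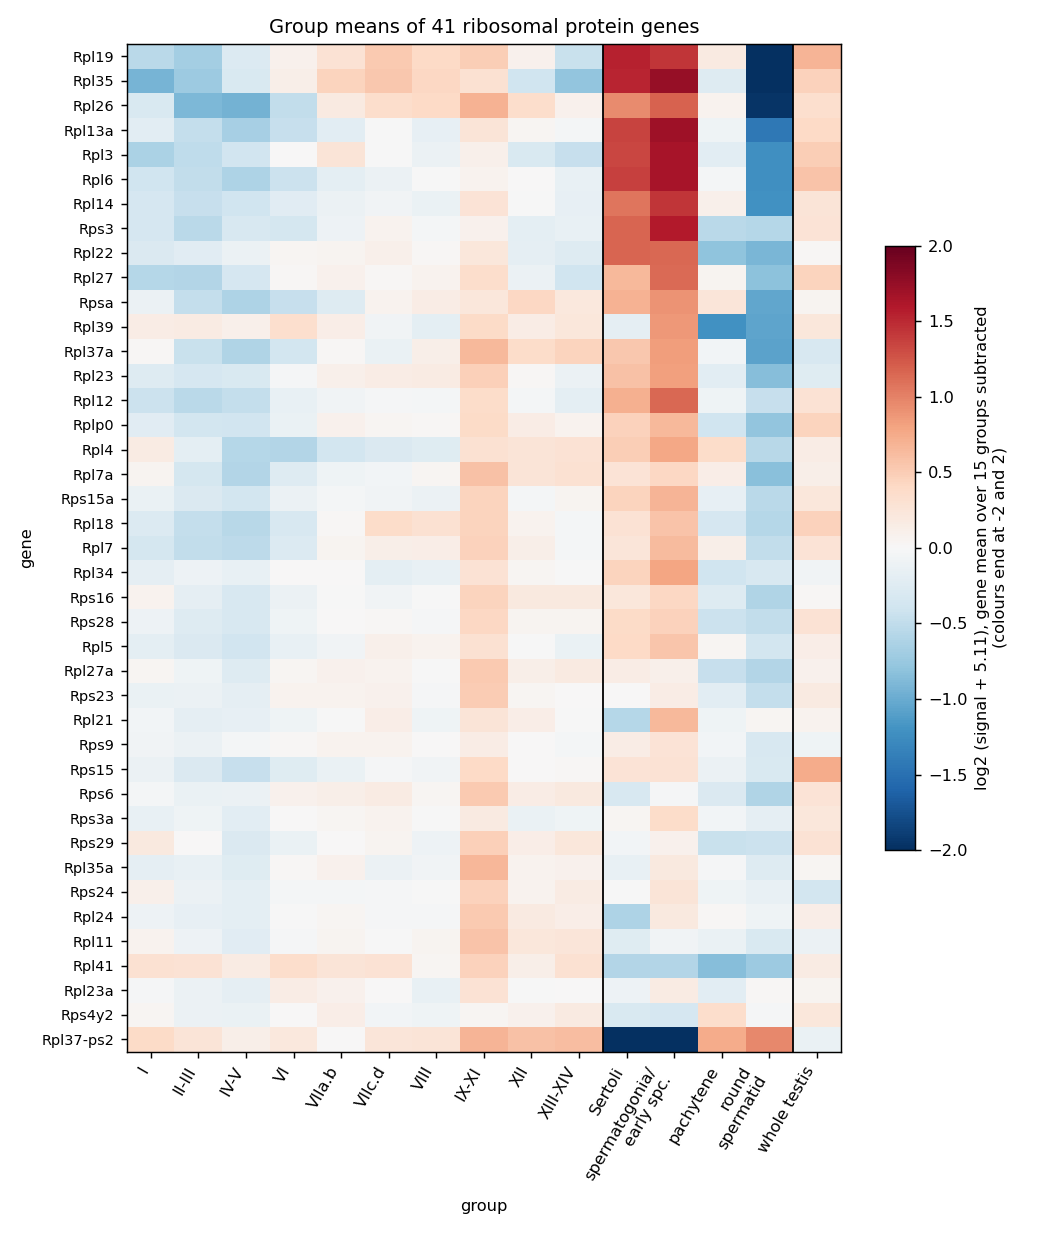
Colour map of the group means of 41 genes (vertical axis) in 15 groups (horizontal axis), as log2(signal + 5.11) with each gene's mean over the groups subtracted. The upper rows, from Rpl19 to Rpl14, go from red in Sertoli cells and the spermatogonia-early spermatocyte fraction to blue in round spermatids, and Rpl37-ps2 in the bottom row runs the other way.

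Most genes of this family were lower in pachytene spermatocytes than in the spermatogonia-early spermatocyte fraction, a comparison called the first step below. The fraction also held Leydig, macrophage and Sertoli markers at the sums given above, which were far lower in pachytene spermatocytes, and their part in this difference was not tested. Of 41 genes tested, 30 were lower in pachytene spermatocytes at an adjusted p under 0.05 in limma, and 2 were higher. The background over all 20253 probe sets tested was 39.1% lower and 28.1% higher. With at least a 2-fold difference, 15 were lower (background 28.6%) and 1 was higher (18.5%). All pachytene samples lay below all samples of the younger fraction for 23 of the 41 (background 38.7%), and above them for 2 (27.3%). The median log2 difference was -0.69, against -0.15 over all probe sets tested. Without replicate 3 of the fraction, whose actin 3′ to 5′ ratio was 3.64 against 1.54 and 1.88 in the other 2 samples, the median was -0.59 and 11 members were lower by at least 2-fold. By subunit, 22 of 28 large-subunit genes were lower, 14 of them at least 2-fold, with a median of -0.97. Of 13 small-subunit genes, 8 were lower, 1 of them at least 2-fold, with a median of -0.42. The difference between the subunits was not tested.

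Rps3, a small-subunit protein at the mRNA entry site that also acts in DNA repair, fell most. Its signals were 1645, 2081 and 1981 in the spermatogonia-early spermatocyte fraction and 499, 360, 430 and 435 in pachytene spermatocytes. The groups did not overlap, and the log2 difference was -2.13 (SE 0.15, adjusted p = 3.03e-10, limma). It stayed at 419 ± 27.0 (n = 4) in round spermatids, a log2 difference of -0.03 (SE 0.14) from pachytene with overlapping samples. Rpl22, a large-subunit protein known to be dispensable for translation in many cells, gave 1992, 2259 and 2858 in the younger fraction. In pachytene spermatocytes it gave 623, 599, 521 and 673. The groups stood apart, with a log2 difference of -1.95 (SE 0.12, adjusted p = 1.03e-10, limma), and round spermatids at 560 ± 34.2 (n = 4) overlapped with pachytene.

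Rpl39, one of the smallest large-subunit proteins, which lines the peptide exit tunnel, was at 132, 192 and 216 in the spermatogonia-early spermatocyte fraction. In pachytene spermatocytes its samples read 41.1, 39.3, 31.0 and 40.3, all below the low-signal limit of 43.7. No sample overlapped, and the log2 difference was -2.08 (SE 0.18, adjusted p = 7.88e-09, limma). Round spermatids stayed at 42.6 ± 3.60 (n = 4), and Sertoli cells read 80.4, 73.6, 93.0 and 82.6, between the younger fraction and pachytene. In tubules Rpl39 did not pass the stage test (adjusted p = 0.0523, limma) but did under 4 of 9 other settings, including quantile normalization (adjusted p = 0.0164).

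The paralog Rpl39l1, which the choice of genes left out, moved the other way. It gave 996, 933 and 1256 in the spermatogonia-early spermatocyte fraction and 4096, 2739, 3464 and 4430 in pachytene spermatocytes. Every pachytene sample was above every sample of the younger fraction, with a log2 difference of 1.78 (SE 0.14, adjusted p = 2.37e-09, limma). Round spermatids held 3877 ± 148 (n = 4), and Sertoli cells 1017 ± 37.1 (n = 4). Levels of 2 probe sets cannot be set against each other, so these values show the direction of each gene and not their proportion. Rpl26l1, a paralog of Rpl26, also rose in pachytene spermatocytes, from 31.6 ± 4.09 (n = 3) to 75.0 ± 10.2 (n = 4; log2 1.12, SE 0.20, adjusted p = 7.84e-05, limma), starting below the low-signal limit. Rps27l, a p53-responsive paralog of Rps27, fell by 1.02 (SE 0.33, adjusted p = 0.0108, limma), and Rpl7l1 did not pass (log2 -0.20, adjusted p = 0.156). Rpl7l1 did pass as lower after quantile normalization (log2 -0.52, adjusted p = 0.000961, limma). Its other probe set was lower without overlap, from 304 ± 11.4 (n = 3) to 215 ± 27.5 (n = 4; log2 -0.50, adjusted p = 0.00286, limma).

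**Figure D3:**
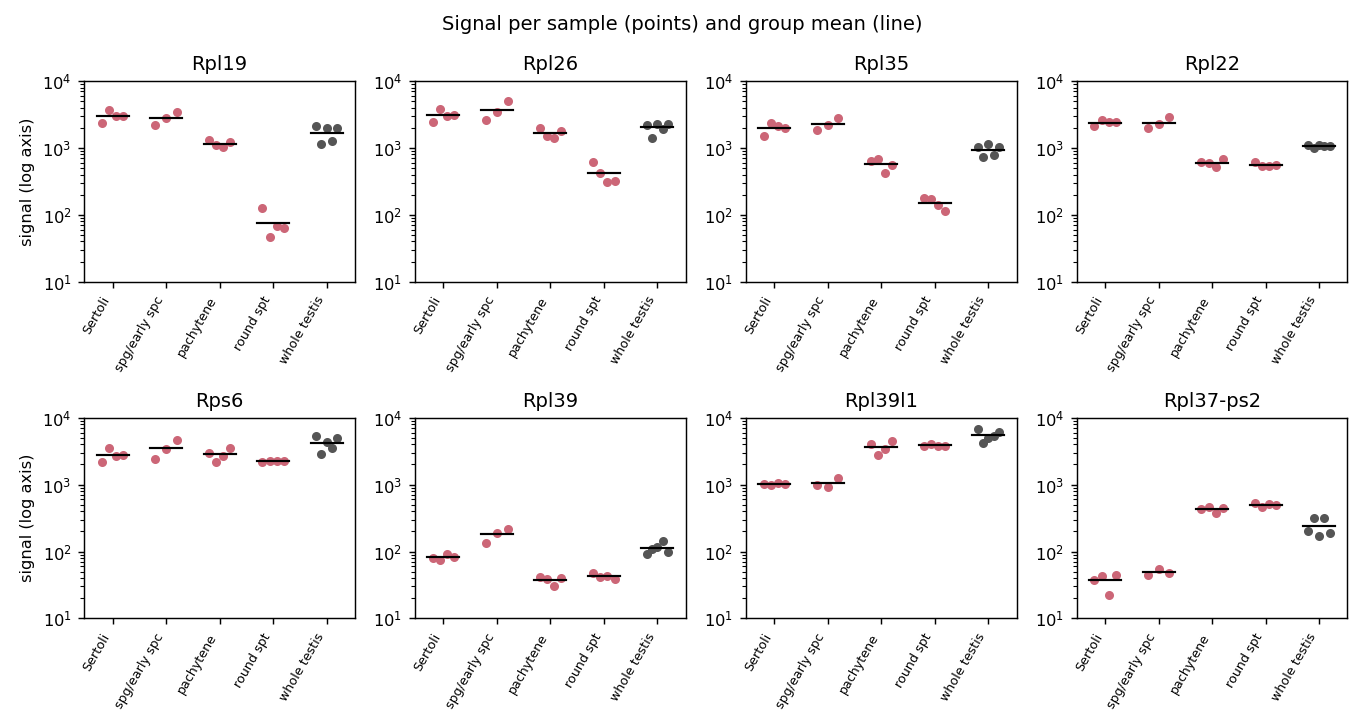
Signal of each sample (points, log axis) and group mean (line) for 8 genes in 4 isolated cell groups (red) and whole testis (grey); spg/early spc is the spermatogonia-early spermatocyte fraction, and heights are not comparable between panels. Rpl19, Rpl26 and Rpl35 step down at both steps, Rpl22 and Rpl39 at the first, Rps6 spreads widely with no called step, and Rpl39l1 and Rpl37-ps2 step up at pachytene.

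The 2 members that rose at this step were Rpl37-ps2 and Rps4y2. Rpl37-ps2, a transcribed pseudogene of Rpl37, read 44.0, 54.5 and 48.4 in the spermatogonia-early spermatocyte fraction and 436, 457, 370 and 453 in pachytene spermatocytes. The groups were far apart (log2 3.00, SE 0.17, adjusted p = 2.25e-11, limma). Rps4y2, a small-subunit protein gene of the Rps4 family, read 423, 357 and 285 in the younger fraction and 594, 528, 545 and 621 in pachytene spermatocytes. It rose by 0.70 (SE 0.13, adjusted p = 0.00012, limma) without overlap, and was lower again in round spermatids at 442 ± 49.9 (n = 4; log2 -0.37, SE 0.12, adjusted p = 0.0184). Over the 69 samples, Rpl37-ps2 and Rps4y2 had the lowest correlations with the median of the other members (Pearson r -0.50 and -0.01), given as a description of samples that share groups and arrays. Rps15a (0.95), Rplp0 (0.94) and Rps28 (0.90) had the highest.

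A total of 9 tested members did not pass as lower in either step. They were Rpl11, Rpl24, Rpl35a, Rpl37-ps2, Rpl41, Rps3a, Rps6, Rps23 and Rps24. The share of all probe sets that passed as lower in neither step was not computed, so this count only describes the members. A weaker probe set of Rps24 was lower in both steps without overlap, from 117 ± 9.39 (n = 3) to 35.4 ± 4.17 and 16.1 ± 2.59 (n = 4 each). Its log2 differences were -1.60 (adjusted p = 4.67e-07, limma) and -0.94 (adjusted p = 0.000201, limma). Its means in pachytene spermatocytes and round spermatids lay below the low-signal limit of 43.7. Rps6, the small-subunit protein phosphorylated by the S6 kinases, gave 2380, 3382 and 4723 in the younger fraction, 3014, 2187, 2662 and 3487 in pachytene spermatocytes and 2245 ± 26.6 (n = 4) in round spermatids. Its samples overlapped at both steps (log2 -0.27, SE 0.20, then -0.32, SE 0.18). Rpl11, a large-subunit protein that binds Mdm2 when ribosome assembly fails, gave 2618 ± 698 (n = 3), 2463 ± 387 (n = 4) and 2156 ± 49.2 (n = 4), with log2 differences of -0.07 (SE 0.17) and -0.18 (SE 0.16). Among matched genes, those with a pyrimidine run of 8 or more and those with shorter runs had median log2 differences of -0.79 (22 genes) and -0.80 (12 genes) in the first step. In the second step the medians were -0.38 and -0.27.

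The array scaling sets the size of this first step. With array medians set equal, the median over all probe sets tested moved from -0.15 to 0.21 and that of the members from -0.69 to -0.33, and the count lower by at least 2-fold dropped from 15 to 7. Such a scaling shifts the members and all probe sets alike, and their difference of -0.54 is left as it was by construction. After quantile normalization the difference was -1.06, with a median of -0.95 over members.

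**Figure D4:**
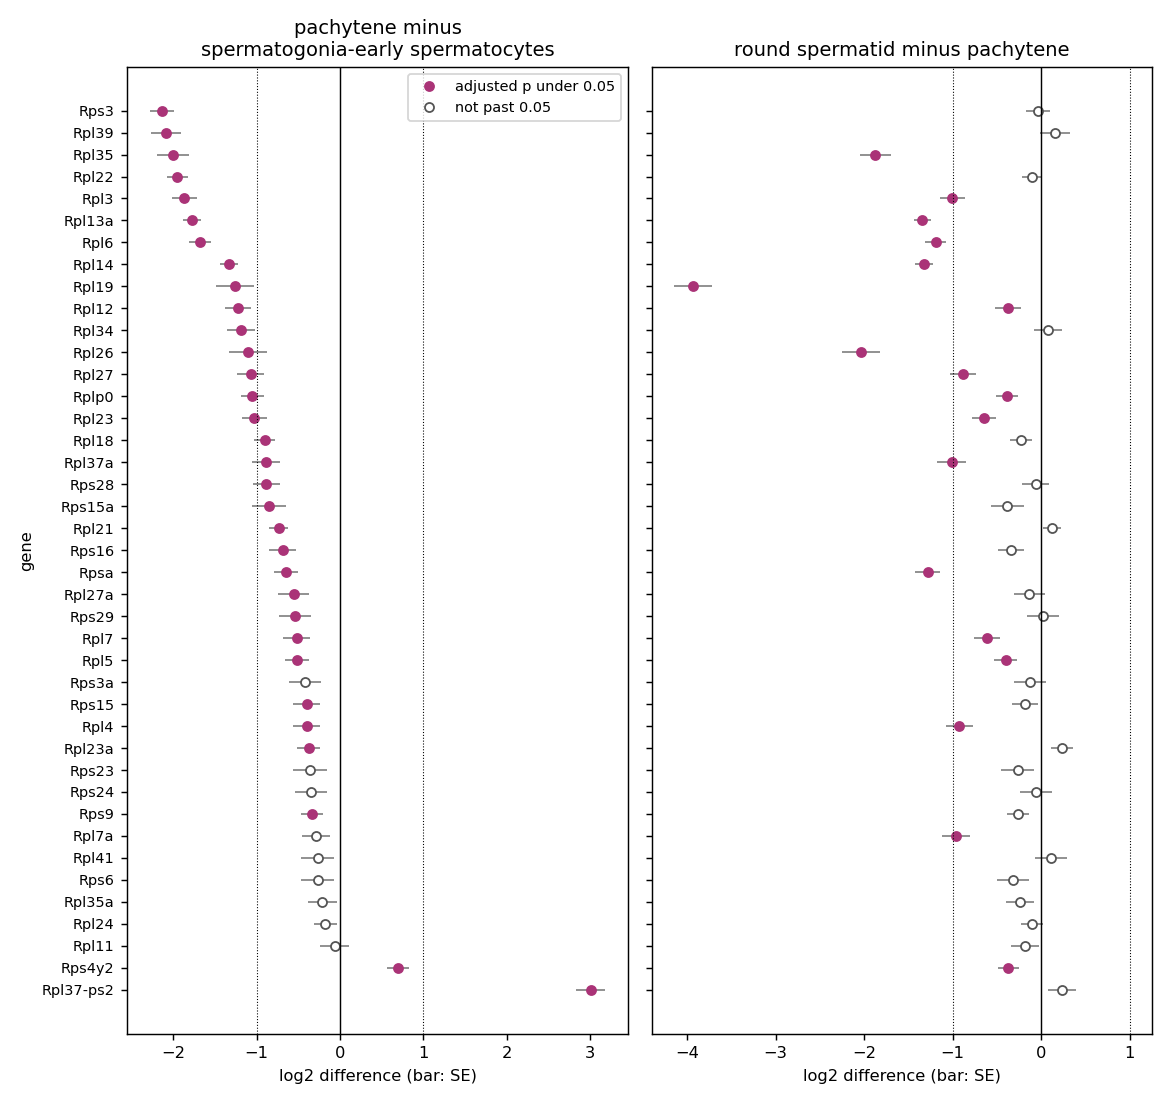
Log2 difference with its SE (horizontal axes) of 41 genes (vertical axis) from the spermatogonia-early spermatocyte fraction to pachytene spermatocytes (left) and from pachytene spermatocytes to round spermatids (right); filled points have an adjusted p under 0.05 in limma and dotted lines mark 2-fold. On the right, Rpl19 at -3.93, Rpl26 at -2.04 and Rpl35 at -1.87 lie apart from the other genes.

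The second step, from pachytene spermatocytes to round spermatids, showed fewer members lower, some of them by far more. These contrasts share the pachytene samples, so their values are given side by side only. Of 41 members tested, 18 were lower in round spermatids at an adjusted p under 0.05 in limma (background 27.2%) and none was higher (16.9%), also at an unadjusted p under 0.05. At least 2-fold, 9 were lower (background 13.1%) and 0 higher (8.9%). All round spermatid samples lay below all pachytene samples for 21 members (background 26.8%), and above them for 1, Rpl37-ps2 (18.5%). The median log2 difference was -0.32, against -0.06 over all probe sets tested. It was -0.52 after quantile normalization, and leaving out single samples gave -0.41 (without pachytene replicate 2) to -0.21 (without pachytene replicate 4). The 18 comprised 16 of 28 large-subunit and 2 of 13 small-subunit genes. Among 35 tested probe sets with several symbols including a ribosomal protein name, 5 were lower and 3 higher, with a median of -0.07. The 3′ to 5′ signal ratio of the Gapdh control probes, a measure of RNA integrity, was 2.13 ± 0.31 in round spermatids and 1.22 ± 0.19 in pachytene spermatocytes (n = 4 each). The actin ratio went the other way, at 1.90 ± 0.10 in round spermatids and 2.23 ± 0.23 in pachytene spermatocytes. The part of RNA integrity in the difference was not tested.

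Rpl19, a large-subunit protein that forms a bridge to the small subunit, had signals of 1300, 1100, 1020 and 1227 in pachytene spermatocytes and 126, 46.9, 67.5 and 62.6 in round spermatids. The lowest pachytene sample was far above the highest round spermatid sample, and the log2 difference was -3.93 (SE 0.21, adjusted p = 5.34e-11, limma), a 15.3-fold fall. In the spermatogonia-early spermatocyte fraction it had given 2237, 2783 and 3437, and in Sertoli cells 3026 ± 510.3 (n = 4). Rpl26, which sits near the exit of the peptide tunnel, gave 1974, 1524, 1419 and 1764 in pachytene spermatocytes and 612, 423, 305 and 322 in round spermatids. It fell by 2.04 on the log2 scale (SE 0.21, adjusted p = 2.36e-07, limma), with no overlap. Rpl35, its neighbour at the tunnel exit, gave 647, 672, 419 and 548 and then 176, 175, 142 and 114. It fell by 1.87 (SE 0.18, adjusted p = 6.75e-08, limma), after a fall of 2.00 (SE 0.19) in the first step.

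A total of 7 members fell at least 2-fold in both steps, Rpl3, Rpl6, Rpl13a, Rpl14, Rpl19, Rpl26 and Rpl35. All 7 have large-subunit names, as do 28 of the 41 members tested. The share of all probe sets lower in both steps was not computed, so the count only describes the members. Rpl13a, which can leave the ribosome to silence translation after interferon-gamma, went from 2184 ± 149 (n = 3) to 636 ± 50.7 (n = 4) and then to 248 ± 27.5 (n = 4), with log2 differences of -1.77 (SE 0.11) and -1.34 (SE 0.10). Rpl14 went from 2052 ± 278 to 811 ± 62.6 and 321 ± 16.4 (log2 -1.33, SE 0.11, then -1.32, SE 0.10). Rpl3, which reaches the peptidyl transferase centre, went from 3414 ± 886 to 912 ± 84.8 and 451 ± 32.4 (log2 -1.87, SE 0.15, in the first step and a 2.01-fold fall in the second). A weaker probe set of Rpl3 fell in the first step (log2 -1.08, adjusted p = 0.00206, limma) but read 51.4 and 70.6 in the second, where it did not pass (0.44, adjusted p = 0.193). Rpl37a and Rpsa, the laminin receptor protein of the small subunit, fell at least 2-fold in the second step alone by this count. Rpsa gave 1259, 1145, 1086 and 1543 in pachytene spermatocytes and 612, 474, 511 and 452 in round spermatids (log2 -1.28, SE 0.14, adjusted p = 3.18e-07, limma), and its 2 other probe sets also fell (log2 -0.75 and -1.88). Rplp0, the core of the ribosomal stalk that recruits elongation factors, gave 2644 ± 288 (n = 3), 1274 ± 126 (n = 4) and 970 ± 58.5 (n = 4). Its falls were 1.05 (SE 0.13) and 0.39 (SE 0.12) on the log2 scale.

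Other genes of the translation machinery were read from lists, whose counts stand against the same backgrounds (39.1% lower and 28.1% higher in the first step, 27.2% and 16.9% in the second). Rack1, a small-subunit protein with another name, fell at both steps, from 2073 ± 362 (n = 3) to 534 ± 29.6 (n = 4; log2 -1.93, SE 0.13, adjusted p = 1.25e-10, limma) and to 96.5 ± 12.5 (n = 4; log2 -2.41, SE 0.12, adjusted p = 1.57e-11). Rpl7l1, an Rpl7 paralog, gave 317, 410, 391 and 388 in pachytene spermatocytes and 66.3, 59.8, 54.7 and 57.9 in round spermatids, a fall of 2.55 (SE 0.11, adjusted p = 5.87e-12, limma). Of 7 elongation factors and other genes with pyrimidine-tract mRNAs, 1 was higher and 1 lower in the first step, and 2 were higher and 2 lower in the second. Eef1b2, a nucleotide exchange subunit, rose by 0.48 and then fell by 1.34, while Eef1d, another exchange subunit, had a difference of 1.32 in the second step. Of 26 ribosome assembly genes, 12 were lower and 6 higher in the first step, with Dkc1 (log2 -4.79), Polr1b (-4.01), Fbl (-2.68) and Ncl (-2.43) lowest. Wdr12 and Nob1 rose most among those that passed. The list median was -0.06, against -0.15 over all probe sets tested, so the list as a whole was not shifted down in this step. Dkc1 and Fbl serve rRNA modification, Polr1b is a subunit of RNA polymerase I, and Ncl is nucleolin; Dkc1 (4.21 ± 0.50, n = 4) and Polr1b (2.17 ± 0.90, n = 4) lay far below the low-signal limit in pachytene spermatocytes, so their folds depend on the pseudocount. In the second step 16 were lower and 4 higher, with Gar1 (-2.12) and Ncl (-1.90) lowest. Nop56 and Nop58 rose most among those that passed, and the list median was -0.39, against -0.06 over all probe sets tested. Mitochondrial ribosomal protein genes, which serve the separate ribosome of that organelle, went both ways: of 73, 38 were higher and 19 lower in the first step, and 7 were higher and 42 lower in the second. Their medians were 0.34 and -0.39.

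Against Sertoli cells, the somatic cells of the tubule, the spermatogonia-early spermatocyte fraction was higher for 9 of 41 members (background 40.2%) and lower for 0 (23.2%), at an adjusted p under 0.05 in limma. At an unadjusted p under 0.05 none was lower either. At least 2-fold, 2 were higher (background 24.9%), Rpl21 and Rpl39. Rpl21 gave 792, 806, 854 and 969 in Sertoli cells and 1740, 1888 and 2358 in the fraction (log2 1.21, SE 0.11, adjusted p = 8.86e-08, limma), without overlap. Rpl24, which joins the large subunit late, gave 1184 ± 102 (n = 4) and 2108 ± 464 (n = 3), a log2 difference of 0.81 (SE 0.13, adjusted p = 5.32e-05). The median over members was 0.26 and that over all probe sets 0.23. With array medians set equal these became -0.31 and -0.34 and no member was higher by 2-fold, so the sign of this comparison follows the scaling. Without spermatogonia-early spermatocyte replicate 3, the sample of raised actin ratio, the median was 0.10 and 1 member was higher at least 2-fold, as also without replicate 2. Both preparations held markers of other cells at the sums given above, and their part in this comparison was not tested.

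Pachytene spermatocytes, set against Sertoli cells, were lower for 24 of 41 members (background 37.9%) and higher for 4 (45.1%). At least 2-fold, 8 were lower (28.3%) and 1 higher (33.6%), and the median was -0.49 against 0.21 over all probe sets. The lowest were Rpl22 (log2 -1.98, SE 0.12), Rpl35 (-1.79, SE 0.18), Rps3 (-1.70, SE 0.14), Rpl3 (-1.56, SE 0.14) and Rpl13a (-1.44, SE 0.10). The 4 that were higher were Rpl37-ps2 (3.40, SE 0.16), Rps4y2 (0.66, SE 0.12), Rpl24 (0.63, SE 0.12) and Rpl21 (0.47, SE 0.10). With array medians set equal the count lower by at least 2-fold was 15. The Leydig, peritubular myoid and endothelial markers of the Sertoli samples, given above, had a part that was not tested.

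Over the cycle of the seminiferous epithelium, the members shared a shallow profile with its low at IV-V and its high at IX-XI. The stage F-test in limma passed for 37 of 42 members at an adjusted p under 0.05 (background 54.3% of 22258 probe sets), and 7 of these had at least a 2-fold range (32.5%). The median range of the stage means was 0.77 on the log2 scale, against 0.89 over all probe sets tested. The highest stage was IX-XI for 36 of the 42 (14.3% of all probe sets tested), and the lowest was IV-V for 25 (11.8%). All 42 were above their own mean over stages at IX-XI, by a median of 0.43, and all 42 were below it at IV-V, by a median of -0.28. At II-III, 40 of 42 were below it. For all probe sets, shares above or below their own mean at these stages were not computed, so these counts only describe the members. The 6 with other peaks were Rpl3 and Rps13 (VIIa.b), Rpl19 and Rpl35 (VIIc.d), Rpsa (XII) and Rps4y2 (XIII-XIV).

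The IX-XI samples differed among themselves. Replicates 2 and 3 held the highest shares, 2.09 and 2.13%, against at least 1.79% in the other 3. The same 2 samples had actin 3′ to 5′ ratios of 2.65 and 2.72, against 1.61 to 1.81. The 3 other samples lay above every sample of the other 9 stages in share, the next being 1.76% at XII. The part of RNA integrity in the IX-XI values was not tested. Without the 5 samples of raised ratios (VIIc.d and IX-XI replicates 2 and 3, and replicate 3 of the younger cell fraction), 27 of 42 members peaked at IX-XI, and 29 did after quantile normalization.

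**Figure D5:**
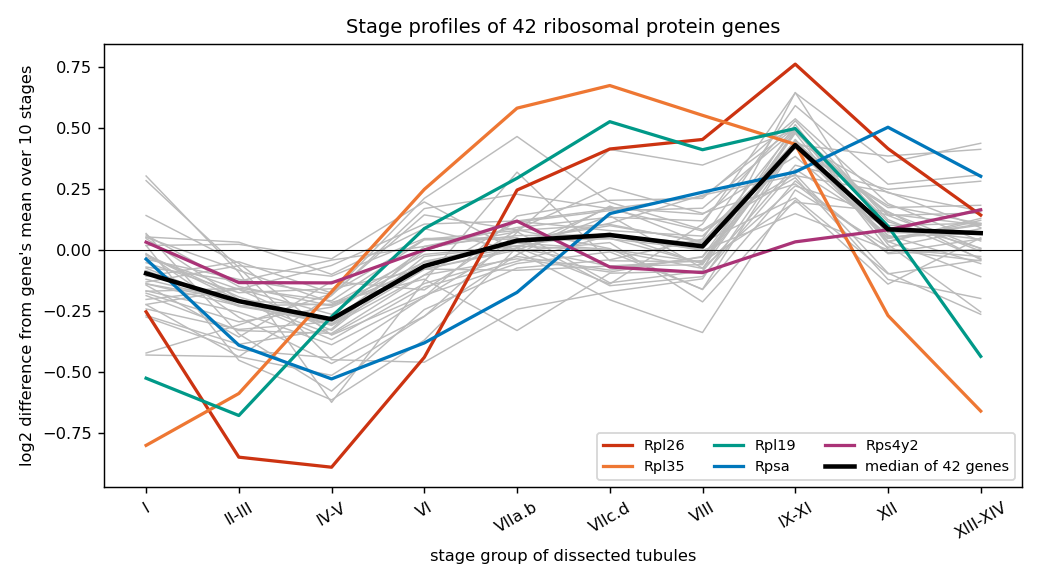
Stage means of 42 genes (grey lines; 5 genes coloured; black, median of the 42) as log2 difference from each gene's mean over the 10 stage groups (horizontal axis). The median falls to -0.28 at IV-V and peaks at 0.43 at IX-XI, while Rpl35 and Rpl19 form a plateau from VIIa.b to IX-XI and Rpsa peaks at XII.

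Rpl26 had the widest stage range. Its signals at IV-V were 863, 819, 871 and 710, and at IX-XI they were 2700, 2676, 2385, 2499 and 2555. The 2 stages were far apart, a 3.14-fold range (F-test adjusted p = 3.02e-24, limma). The 2 IX-XI samples with raised ratios read 2676 and 2385. At VIII its 5 samples already read 1972 to 2210. Rpl35 gave 502, 281, 279, 368 and 368 at I and 972, 1018, 1084, 887 and 964 at VIIc.d, a 2.77-fold range without overlap (adjusted p = 7.25e-18). It was down again to 394 ± 86.3 (n = 5) at XIII-XIV. Rpl19 gave 572, 636, 519, 732 and 750 at II-III and 1347, 1584, 1584, 1407 and 1437 at VIIc.d, a 2.30-fold range (adjusted p = 7.58e-19), again without overlap.

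Rpl37a ranged 2.39-fold, from 1207 ± 99.7 (n = 4) at IV-V to 2905 ± 392 (n = 5) at IX-XI. Rpl7a, a large-subunit protein, ranged 2.25-fold, from 1475 ± 68.3 to 3343 ± 466, and Rpl18 2.01-fold, from 1019 ± 35.9 to 2067 ± 319, between the same stages. Rpsa gave 698, 656, 611 and 788 at IV-V and 902, 1337, 1627, 1802 and 1544 at XII, a 2.04-fold range (adjusted p = 6.2e-08, limma) with replicate 1 of XII low. Its 2 other probe sets were also lowest at IV-V but highest at IX-XI. Rplp0, near the middle of the group, gave 1309, 1311, 1349 and 1207 at IV-V and 2147, 2406, 2540, 1920 and 1993 at IX-XI, a 1.69-fold range (adjusted p = 8.41e-10). The 5 members that did not pass were Rpl39, Rpl41, Rps3a, Rps9 and Rps13. With replicate number as a block in the fit, Rps3a did pass (adjusted p = 0.0104, limma). Rps9 ranged only 1.21-fold, from 1839 ± 204 (n = 5) to 2222 ± 149 (n = 5), with overlapping samples, and Rpl41, the shortest ribosomal protein, 1.33-fold, from 3919 ± 266 to 5300 ± 1028.

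The paralog Rpl39l1 did not follow the profile of Rpl39 in cells, and its stage range was 0.46 on the log2 scale. Of the 4 paralogs tested, 2 passed the stage test (background 54.3%). Of the 7 elongation genes 5 passed, and 2 of the 7 were highest at IX-XI (background 14.3%). Of 72 mitochondrial ribosomal protein genes 62 passed, and 23 of the 72 were highest there. Of 24 assembly genes 21 passed, and 7 of the 24 were highest there.

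Whole testis, which also holds the interstitial tissue between the tubules, was set against the mean of the 10 stages. At an adjusted p under 0.05 in limma, 21 of 42 members were higher (background 15.2%) and 5 were lower (17.4%). None differed by 2-fold (background 2.31% higher, 1.2% lower). The median difference was 0.19 against -0.05 over all probe sets tested. Rps15, a small-subunit protein, differed most, with whole testis samples at 3790, 1888, 2907, 2399 and 3301 (log2 0.83, SE 0.10, adjusted p = 8.8e-09). Rpl6 (0.81, SE 0.08), Rpl3 (0.70, SE 0.10), Rpl19 (0.69, SE 0.09) and Rpl13a (0.60, SE 0.09) followed. The lower ones were Rpl37-ps2 (-0.47, SE 0.13), Rps24 (-0.41, SE 0.08), Rpl37a (-0.33, SE 0.10), Rpl23 (-0.23, SE 0.06) and Rpl11 (-0.20, SE 0.07). For Rps15, as for Rplp0 at 3245, 1501, 2681, 1658 and 2867, whole testis replicates 2 and 4 lay below the other 3. No member had all whole testis samples above (background 0.827%) or below (0.107%) all 49 tubule samples.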

How the data were processed

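RNA of 69 samples was hybridised to Affymetrix arrays. The deposited values are probe set intensity on a linear scale, made by the authors with MAS5, per the submitters' processing notes; further steps are not given in the sources used here. Detection calls were not used. The authors' scaling was kept (trimmed mean near 100 with 2% cut from each end).

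Values were analysed as log2(signal + 5.11), the pseudocount being the 10th percentile of the table. Probe sets above the table median (43.7) in at least 3 samples of a fit were tested with limma 3.58.1 in R 4.3.3 (trended eBayes, Benjamini-Hochberg over all probe sets tested), over the 49 tubule samples, the 15 cell samples, or tubules with whole testis. A call needs an adjusted p under 0.05, and at least 2-fold where stated. Members and lists were chosen with earlier results of these data known. Gene names are those of the platform annotation; 36 probe sets that carry several symbols including a ribosomal protein name were not assigned to a gene. The named genes are the X-linked and stalk members, Rpsa, the paralogs, the 5 largest rises and falls of each contrast, the 6 widest and 3 narrowest stage ranges, the 5 highest and 5 lowest mean signals, and the 3 most and 5 least alike members, with up to 2 rises and 2 falls per list. Further names were chosen after their values were seen. The fits were tested on simulated data. Whether probes also bind processed pseudogene copies was not examined. Alternatives tried were the pseudocount, the filter, the scaling, the choice of probe set, array weights, the fit on 2 groups alone, the replicate block and leaving out samples.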

Additional observations from a re-analysis of the deposited data

Results flagged for a closer look

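In groups of 4 or 5 samples, the highest or lowest sample was set against its nearest neighbour with Dixon's ratio at the 95% level. This was done for 539 sets of values, the array shares and medians of the members and the signals of each named member or paralog in each group whose median reached the low-signal limit. A sample stood apart in 28 sets, and chance alone gives about 1 in 20. No array share and no array median of the members was among them.

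At stage I, Rpl37a had a sample at 2360 (above its nearest at 1859), Rpl39 a sample at 133.1 (nearest 102.2), Rps24 a sample at 3249 (nearest 2706) and Rps3a a sample at 2823 (nearest 2284). At stage I, Rpl22 had a sample at 760.7 (below its nearest at 883.5) and Rpl26l1 a sample at 33.63 (nearest 60.97). At stage II-III, Rps24 had a sample at 2824 (above its nearest at 2360). At stage IV-V, Rpl19 had a sample at 949.9 (above its nearest at 811.3). At stage VI, Rpl11 had a sample at 2335 (below its nearest at 2665). At stage VIIa.b, Rpl12 had a sample at 1336 (above its nearest at 1060), Rpl6 a sample at 836.4 (nearest 734), Rps9 a sample at 2273 (nearest 2063) and Rpsa a sample at 1090 (nearest 860.2). At stage VIIc.d, Rpl6 had a sample at 924.6 (above its nearest at 780.1). At stage VIIc.d, Rps6 had a sample at 3395 (below its nearest at 3881). At stage VIII, Rps27l had a sample at 104.8 (above its nearest at 49.49). At stage IX-XI, Rpl21 had a sample at 1968 (above its nearest at 1461). At stage XII, Rpl24 had a sample at 2369 (above its nearest at 2049). At stage XIII-XIV, Rpl12 had a sample at 1510 (above its nearest at 960.5), Rpl23 a sample at 1763 (nearest 1457), Rpl6 a sample at 927.7 (nearest 754.3), Rps4y2 a sample at 611.9 (nearest 502.1) and Rps27l a sample at 190.6 (nearest 66.96). In Sertoli cells, Rpl13a had a sample at 1558 (below its nearest at 1768). In round spermatids, Rpl39l1 had a sample at 4099 (above its nearest at 3816). In round spermatids, Rpl37a had a sample at 770.6 (below its nearest at 903). In whole testis, Rpl37a had a sample at 1087 (below its nearest at 1512) and Rpl26l1 a sample at 33.16 (nearest 50.36). Both values of Rpl26l1 lie below the low-signal limit of 43.7.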

How the results depend on the processing

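More members were lower than higher by 2-fold in pachytene spermatocytes (both comparisons) and in round spermatids under every setting run, and the counts followed the scaling. With array medians set equal, the spermatogonia-early spermatocyte fraction against Sertoli cells gave 0 members higher by 2-fold and a median of -0.31. Under the same setting, pachytene against Sertoli cells gave 15 lower and a median of -0.71. Pachytene against the younger fraction gave 2 higher, 7 lower and a median of -0.33. Quantile normalization moved the medians to -0.69 (pachytene against Sertoli cells), -0.95 (pachytene against the younger fraction) and -0.52 (round spermatid against pachytene). A pseudocount of 20 left 1 member higher in the younger fraction than in Sertoli cells, as did leaving out the 5 samples of raised 3′ to 5′ ratio, with a median of 0.10. Without a fold minimum, 37 members were stage-regulated. The counts were then 9 higher in the younger fraction than in Sertoli cells, 4 higher and 24 lower in pachytene than in Sertoli cells, 2 higher and 30 lower in pachytene than in the younger fraction, 18 lower in round spermatids, and 21 higher and 5 lower in whole testis. For these moves the cause was not tested.

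Leaving out each replicate in turn gave 6 to 9 stage-regulated members, 32 to 38 peaking at IX-XI, 7 to 9 lower in pachytene than in Sertoli cells, 11 to 19 lower than in the younger fraction and 7 to 11 lower in round spermatids. The medians ranged from -0.83 to -0.59 (pachytene against the younger fraction) and from -0.41 to -0.21 (round spermatids). For the younger fraction against Sertoli cells it gave 1 to 2 members higher and medians from 0.10 to 0.41. With array medians set equal, 34 of 41 members changed sign for the younger fraction against Sertoli cells, as the median over all probe sets did (0.23 to -0.34), and 9 did for pachytene against the younger fraction. Named genes that turned and passed the test on either side were Rpl27 (-0.10), Rpl12 (-0.14), Rack1 (-0.0076), Rpl39l1 (-0.52) and Rplp0 (-0.38). With the mean of all probe sets of a gene, whole testis against tubules turned for Rrp12 (0.038) and Mrpl40 (0.17).

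Same-numbered samples correlated at a mean of 0.06 over tubules (216 pairs) and 0.03 over cells (21 pairs), with 41 and 4 of these pairs above 0.1. Other pairs averaged -0.014 over tubules and -0.009 over cells. These values are not on the scale of the signals themselves, which correlated at 0.89 to 0.98 within groups. Not every pair exceeded 0.1 and no label ties the numbers to a shared source, so they were not taken as pairs. As a hint from the data, 36 of 49 tubule samples and 7 of 15 cell samples correlated best with their own number. A fit with replicate number as a block gave 7 stage-regulated members, 36 peaking at IX-XI, and 15 (pachytene against the younger fraction) and 9 (round spermatid against pachytene) lower. It changed no count of members called at 2-fold. Among the named genes it brought Rpl39 (adjusted p = 0.0364, limma) and Rps3a (adjusted p = 0.0104, limma) past the stage test. Signals near the low-signal limit of 43.7, such as Rpl39 in pachytene spermatocytes, bear no precise fold.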

Other observations

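Among the 36 probe sets whose annotation holds several symbols, at least 1 of them a ribosomal protein name, 35 were tested in cells. From the spermatogonia-early spermatocyte fraction to pachytene spermatocytes, 17 were lower (background 39.1%) and 2 higher (28.1%) at an adjusted p under 0.05 in limma, with a median log2 difference of -0.33. By at least 2-fold, 9 were lower, a share below the background of 28.6%. From pachytene spermatocytes to round spermatids, 5 were lower (background 27.2%) and 3 higher (16.9%), and 2 were lower by at least 2-fold (13.1%). The median of that step was -0.07, against -0.06 over all probe sets tested, so these probe sets did not share the fall of the members there. The 3 lowest in the first step stood far below any member described above. Probe set 1371573_at read 1721, 1617 and 2140 in the younger fraction and 31.4, 30.4, 29.6 and 33.8 in pachytene spermatocytes (log2 -5.64, adjusted p = 1.1e-14). Probe set 1371308_at went from 3264 ± 1185 (n = 3) to 68.3 ± 14.6 (n = 4; log2 -5.44, adjusted p = 6.79e-14), and 1367625_at from 2779 ± 748 to 67.2 ± 9.52 (log2 -5.24, adjusted p = 3.28e-14). All 3 were also high in Sertoli cells, at 798 ± 172, 1583 ± 217 and 2147 ± 288 (n = 4), and in round spermatids they read 53.1, 78.7 and 105 on average. The gene behind each was not settled here, and no name is given.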
